A study of Mus musculus with 7 samples.

Results

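Reactive astrocyte genes are a set of 33 genes whose transcripts are known to rise when astrocytes respond to injury. They were chosen by name from published knowledge of reactive astrocytes, with no measured value in the rule, and each was read from the probes that carry its symbol on the array. Earlier results of these data were known when the choice was made. All 33 were measured among the 23288 features (gene names kept if a probe exceeded background clearly on 3 or more of 7 arrays). The levels come from brain tissue of male C57BL/6N mice, either wild type or Pla2g2e -/-, that is, lacking the gene of a secreted phospholipase A2. The study compared these genotypes 3 days after stroke, with 1 array per sample: 3 samples carry the label wild type day 3, another 3 the label knockout (Pla2g2e -/-) day 3, and a single one the label wild type sham. The stroke model was transient occlusion of the middle cerebral artery for 60 min. The treatment label gives this occlusion for every sample, while the title and description of 1 wild type sample call it sham-operated. Age, the time of sampling after sham operation, the knockout allele's design and the brain region taken are not given in the sources used here.

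Astrocytes are the glial cells that feed neurons, clear glutamate and potassium and cover blood vessels with their endfeet. After stroke those around the infarct enlarge, build up intermediate filaments, and secrete acute phase and matrix proteins. Cytokines of the interleukin 6 family, acting through the shared receptor chain gp130, JAK kinases and the transcription factor STAT3, are a main inducer of this state, and lipid mediators and toll-like receptor signals add to it. Many of the genes are not specific to astrocytes: Cd14, Cd44, Timp1, Srgn, S100a10 and the class I histocompatibility genes are also expressed by leukocytes or vessel cells. In a tissue sample fewer cells of a type and less RNA per cell cannot be told apart.

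Levels are given on a log2 scale, as processed signal over its own array's 75th percentile, so a step of 1 is a 2-fold change. A level of one gene cannot be set against that of another, since probes differ in brightness. Between 72.5% and 79.1% of the 43020 spots other than controls were well above background, and no spot was saturated. The labels do not say that replicates were separate animals, so p-values reflect only how far these samples vary, and precision is limited by having 7 arrays. All 4 wild type arrays, sham included, came from 1 slide and all 3 knockout arrays from a second one; slide therefore cannot be told apart from genotype.

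The array labelled wild type day 3 replicate 1 stood apart from the other 6. Its correlation with them over all features was 0.857 to 0.916, while the 15 pairs among the other 6 had 0.968 to 0.991. The median of 8 neuronal markers was 4.18 on it and 0.24 to 2.29 on the others, and the median of 9 macrophage and monocyte markers was -2.11 against 2.17 to 2.66. The array labelled sham lay with the day 3 arrays in these 2 lists, at 2.28 for neurons and 2.60 for macrophages. In other lists it stood apart from the 5 day 3 arrays other than wild type day 3 replicate 1. It read above all 5 in 5 of 11 homeostatic astrocyte and 4 of 8 microglia markers, against 21.8% of all features. It read below all 5 in 7 of 7 endothelial, 6 of 7 neutrophil and 5 of 7 pericyte and fibroblast markers, against 24.9%. The neutrophil marker Ngp, 1 of those 6, was well above background on only 4 of the 7 arrays. The brighter Pla2g2e probe read -6.89, -3.68 and -3.36 on the wild type day 3 arrays, -4.44, -5.83 and -4.97 on the knockout arrays and -4.69 on the sham array. With all arrays the genotypes overlapped on it, and without wild type day 3 replicate 1 both remaining wild type day 3 arrays were above all 3 knockout arrays. The dimmer probe was well above background on wild type day 3 replicates 2 and 3 and on sham (-6.72, -6.50 and -6.83) and not on wild type day 3 replicate 1 or any knockout array. Whether either probe lies in the deleted stretch was not examined here. The labels of wild type day 3 replicate 1 and of sham may be wrong, which would change what every difference from sham, and every wild type day 3 mean, stands for; this was not settled here. Arrays are named as labelled throughout, and each result is given with and without wild type day 3 replicate 1.

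Some members are shown by their probes because values given below refer to them. Gfap, the defining gene, has 3 probes at different places. Serpina3n was the only member with every knockout value above wild type day 3 replicates 2 and 3 (3.03% of members, 6.31% of all features). Fbln5 was the only member with every knockout value below them (3.03% of members, 5.33% of all features). Amigo2 alone ran opposite to the others on wild type day 3 replicate 1. The first 30 bases of each 60-base probe are given as the array design holds them, with positions on the mm9 assembly; whether they lie in coding or untranslated sequence was not examined here.
Gfap, brightest probe, chr11:102751813-102751872, minus strand: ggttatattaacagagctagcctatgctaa
Gfap, next probe, chr11:102748864-102748923, minus strand: tttgaggaactgaaacgtgttgtgttcaag
Gfap, dimmest probe, chr11:102752726-102752785, minus strand: caaaaggctcacaatacaagttgtcccaat
Serpina3n, chr12:105651918-105651977, plus strand: ttggcatgcctggattagatagtgactaac
Fbln5, chr12:102988153-102988212, minus strand: ttaagagtttttacccaactgtgttggaag
Amigo2, chr15:97075262-97075321, minus strand: cactattttgtcttttgagatgaaaccaaa

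The members were low together on wild type day 3 replicate 1. On it 32 of the 33 read below each of the other 6 arrays, against 34.4% of all features, and 31 were at least 2-fold below the lowest of them, against 13.1%. A gap of at least 4-fold was found for 24 members, against 6.21% of all features. The widest gaps belonged to Tgm1 (7.37 on the log2 scale below the lowest other array, or 166-fold), Timp1 (7.24, or 151-fold) and Serpina3n (6.20, or 73.3-fold). The narrowest belonged to Fkbp5, at 0.93. Amigo2 was the exception, higher there than on each other array as were 43.9% of all features. Ptx3, Tnc, Steap4 and Slc10a6 were not well above background on that array alone, so their readings there are only bounds, and the other 29 members were well above background on all 7 arrays.

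**Figure D1:**
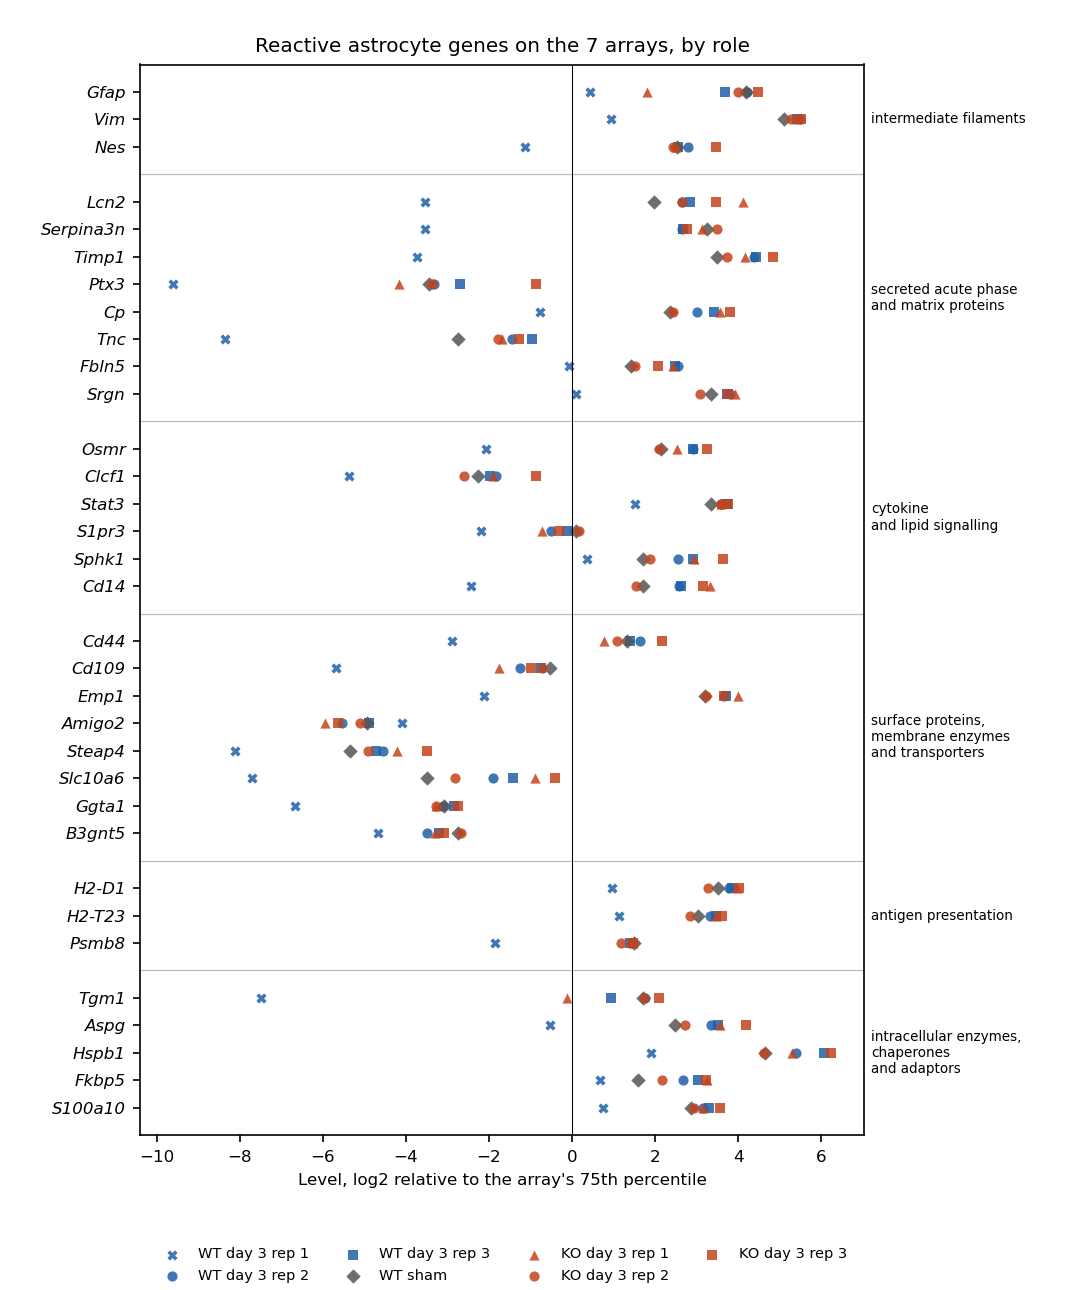
Level of each member on each of the 7 arrays (log2 over the array's 75th percentile, horizontal axis), grouped by role; each point is 1 array, blue for wild type day 3, red for knockout day 3 and grey for sham. The crosses of wild type day 3 replicate 1 lie left of all other points for 32 members and to the right for Amigo2, while the sham array lies among or near the other day 3 arrays.

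The intermediate filament genes build the cytoskeleton that thickens in reactive astrocytes. Gfap, the astrocyte filament protein, read 0.43, 4.22 and 3.68 on wild type day 3 replicates 1, 2 and 3, 1.81, 3.99 and 4.49 on knockout replicates 1, 2 and 3, and 4.19 on sham (arrays are given in this order below). It was thus low on 1 array of each genotype, and the genotypes overlapped. The other Gfap probes gave the same order of low arrays, with -1.21 and -3.74 on wild type replicate 1 and 0.39 and -2.28 on knockout replicate 1, where the other 5 arrays read 2.10 to 3.07 and -0.18 to 0.69. Mean Gfap levels on the brightest probe were 2.78 ± 2.05 in wild type and 3.43 ± 1.42 in knockout (SD, n = 3 each). Without wild type replicate 1 knockout minus wild type was -0.52 (95% interval -2.78 to 1.73), so a change of several fold in either direction could not be told from none.

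Vim, the vimentin gene, which is also active in vessel and immune cells, read 0.94, 5.48 and 5.41 in wild type, 5.44, 5.27 and 5.51 in knockout and 5.11 on sham. The 6 arrays other than wild type replicate 1 spanned only 0.40, so Vim did not share the low value of Gfap on knockout replicate 1. Its knockout minus wild type difference without wild type replicate 1 was -0.04, with a 95% interval of -0.40 to 0.32. Nes, which encodes nestin, a filament of progenitors and of reactive astrocytes, read -1.14, 2.79 and 2.56, then 2.51, 2.44 and 3.46, and 2.54 on sham. Apart from wild type replicate 1 only knockout replicate 3 stood off, on the high side.

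Secreted acute phase and matrix proteins are the largest group with 8 members, tied with the surface proteins. Lcn2, the iron-siderophore binding lipocalin 2, read -3.54, 2.65 and 2.84 in wild type, 4.11, 2.65 and 3.47 in knockout and 1.97 on sham. Knockout replicates 1 and 3 were above both higher wild type arrays and knockout replicate 2 was level with them, so the genotypes overlapped. The difference without wild type replicate 1 was 0.66 ± 0.45 (SE; limma, adjusted p = 0.9999), the largest positive difference in the set, yet short of the threshold. Serpina3n, a serine protease inhibitor, read -3.55, 2.64 and 2.66 in wild type, 3.14, 3.49 and 2.77 in knockout and 3.25 on sham. Each knockout array was above each wild type array, which held for 1.88% of all features with 3 wild type arrays and for 6.31% with replicates 2 and 3, and Serpina3n was the only such member. The sham array was higher still than 2 of the 3 knockout arrays, and the difference without wild type replicate 1 was 0.48 ± 0.24 (SE; limma, adjusted p = 0.9999).

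Timp1, the metalloproteinase inhibitor, read -3.74, 4.39 and 4.44 in wild type, 4.16, 3.73 and 4.83 in knockout and 3.50 on sham. The knockout arrays lay on both sides of wild type replicates 2 and 3, and sham was the lowest of the 6. Tnc, the matrix protein tenascin C, read -8.35 (not well above background), -1.43 and -0.96, then -1.70, -1.78 and -1.27, and -2.76 on sham. All 5 day 3 arrays other than wild type replicate 1 were thus above sham, by at least 0.97. The second Tnc probe also had sham as the lowest of the 6, at -3.26, but knockout replicate 2 was close to it at -3.16. On that probe wild type without replicate 1 minus sham was 0.82, against 1.56 on the brightest one. Fbln5, the elastic fibre protein fibulin 5, read -0.07, 2.56 and 2.47, then 2.44, 1.51 and 2.07, and 1.42 on sham. Here each knockout array was below wild type replicates 2 and 3, as for 5.33% of all features, by a margin as small as 0.03 for knockout replicate 1, and the difference was -0.51 ± 0.30 (SE; limma, adjusted p = 0.9999). With wild type replicate 1 included the Fbln5 groups overlapped.

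Among the other secreted products, Cp, the copper-binding ferroxidase ceruloplasmin, spanned 2.36 to 3.79 on the 6 arrays other than wild type replicate 1, and Srgn, the granule proteoglycan serglycin, 3.08 to 3.93. Ptx3, the long pentraxin that opsonises debris, had the widest span of all members, 3.30, from -4.16 on knockout replicate 1 to -0.86 on knockout replicate 3. Both ends of the Ptx3 range therefore came from the knockout group. A second Cp probe went the other way in sign for knockout minus wild type without wild type replicate 1 (-0.30 against 0.04), with both values near 0.

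The signalling members are receptors, a ligand, a transcription factor and lipid enzymes. Osmr, the oncostatin M receptor chain that pairs with gp130, read -2.06, 2.91 and 2.91 in wild type, 2.53, 2.09 and 3.24 in knockout and 2.13 on sham. Clcf1, a ligand of the ciliary neurotrophic factor receptor, read -5.37, -1.83 and -1.97, then -1.89, -2.61 and -0.86, and -2.26 on sham. In both genes knockout replicate 2 was the lowest and knockout replicate 3 the highest of the 5 day 3 arrays other than wild type replicate 1. Stat3, the transcription factor below these receptors, read 1.53, 3.58 and 3.73, then 3.58, 3.59 and 3.75, and 3.34 on sham. Its 6 arrays other than wild type replicate 1 lay within 0.41, and its knockout minus wild type difference without that array was -0.02 (95% interval -0.37 to 0.34).

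Cd14, the co-receptor for toll-like receptor 4 and also a monocyte gene, read -2.44, 2.57 and 2.62 in wild type, 3.33, 1.55 and 3.15 in knockout and 1.70 on sham. Knockout replicate 2 and sham formed the low pair and the other knockout arrays were above wild type. S1pr3, a receptor for sphingosine 1-phosphate, spanned -0.73 to 0.16 on the 6 arrays other than wild type replicate 1, and Sphk1, the kinase that makes this lipid, 1.72 to 3.64. The receptor was highest and the kinase lowest on knockout replicate 2 among the 5 day 3 arrays other than wild type replicate 1.

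Surface proteins, membrane enzymes and transporters carry signals and small molecules across the cell's border. Cd44, the hyaluronan receptor, read -2.88, 1.65 and 1.41 in wild type, 0.77, 1.08 and 2.17 in knockout and 1.32 on sham. Emp1, an epithelial membrane protein of the ischemia set, read -2.12, 3.65 and 3.72, then 4.005, 3.22 and 3.67, and 3.21 on sham. Both overlapped between genotypes. Steap4, a metalloreductase of the membrane, read -8.13 (not well above background), -4.54 and -4.73, then -4.21, -4.90 and -3.48, and -5.35 on sham, the lowest of the 6.

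Amigo2, a neuronal and astrocytic adhesion protein, read -4.10, -5.55 and -4.89 in wild type, -5.94, -5.11 and -5.63 in knockout and -4.95 on sham. Its values without wild type replicate 1 were mixed between genotypes. On the 6 arrays other than wild type replicate 1, Slc10a6, a transporter of sulfated steroids, was lowest on sham at -3.49 and reached -0.42 on knockout replicate 3. Cd109, a protein that binds transforming growth factor beta, spanned -1.75 to -0.52 on the same 6 arrays, with sham the highest. The glycosyltransferases Ggta1, which adds the alpha-galactose epitope, and B3gnt5, which starts lacto-series glycolipids, spanned -3.28 to -2.75 and -3.50 to -2.68 on them. B3gnt5 ran against most of the set in being highest on knockout replicate 2 of those 6.

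The antigen presentation members load and show peptides to T cells. H2-D1, a classical class I heavy chain, read 0.97, 3.77 and 3.84 in wild type, 3.97, 3.29 and 4.01 in knockout and 3.52 on sham. H2-T23, the non-classical chain Qa-1, read 1.12, 3.32 and 3.47, then 3.48, 2.85 and 3.62, and 3.04 on sham. Class I genes resemble each other in sequence, so these readings may hold signal of other class I genes and are uncertain as to the gene. Whether these 2 probes match other class I genes was not examined here. Psmb8, a catalytic subunit of the immunoproteasome, read -1.87, 1.45 and 1.39, then 1.47, 1.18 and 1.46, and 1.50 on sham, which was the highest of the 7. It had the smallest span of any member on the 6 arrays other than wild type replicate 1, 0.32. In all 3 genes knockout replicate 2 was the lowest of those 6.

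Of the intracellular members, Tgm1, a protein-crosslinking transglutaminase, read -7.49, 1.76 and 0.95 in wild type, -0.11, 1.74 and 2.10 in knockout and 1.70 on sham. Its low value on knockout replicate 1 was shared with Gfap. Hspb1, the small heat shock protein that binds filaments, read 1.89, 5.39 and 6.07, then 5.30, 4.63 and 6.24, and 4.64 on sham. The position that the array file gives for the Hspb1 probe is on chromosome 13, unlike the gene's chromosome in the RefSeq gene table, so its reading is uncertain as to the gene. Aspg, an asparaginase, spanned 2.47 to 4.19 on the 6 arrays other than wild type replicate 1, Fkbp5, a co-chaperone of the glucocorticoid receptor, 1.60 to 3.24, and S100a10, the partner of annexin A2, 2.87 to 3.56. These last 3 members were lowest on sham.

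Knockout against wild type on day 3, the main question of the study, gave no call for any member. With all arrays 32 of 33 members had a higher mean in knockout, where 46.9% of all features did, and the median member difference was 1.28 against -0.03 over all features. None passed in limma (0 of 33 at adjusted p under 0.05, where 0% of all features did; smallest member adjusted p = 0.862), and none had an unadjusted p under 0.05, which 196 features or 0.842% had. Standard errors of the members ran from 0.44 to 2.55. The differences rested on wild type replicate 1: without it 14 members were higher and 19 lower (50.3% of all features were higher), the median member difference was -0.04 and that of all features 0.00. No member passed without it either (0%; 379 features, or 1.63%, had an unadjusted p under 0.05, none of them a member). The member differences then ran from -0.52 for Gfap to 0.66 for Lcn2, and the largest in each role were those of Gfap and Nes (0.12), Lcn2 and Fbln5 (-0.51), Osmr (-0.29) and Clcf1 (0.11), Steap4 (0.44) and Amigo2 (-0.34), H2-T23 (-0.08) and Psmb8 (-0.05), and Hspb1 (-0.34) and Tgm1 (-0.11).

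**Figure D2:**
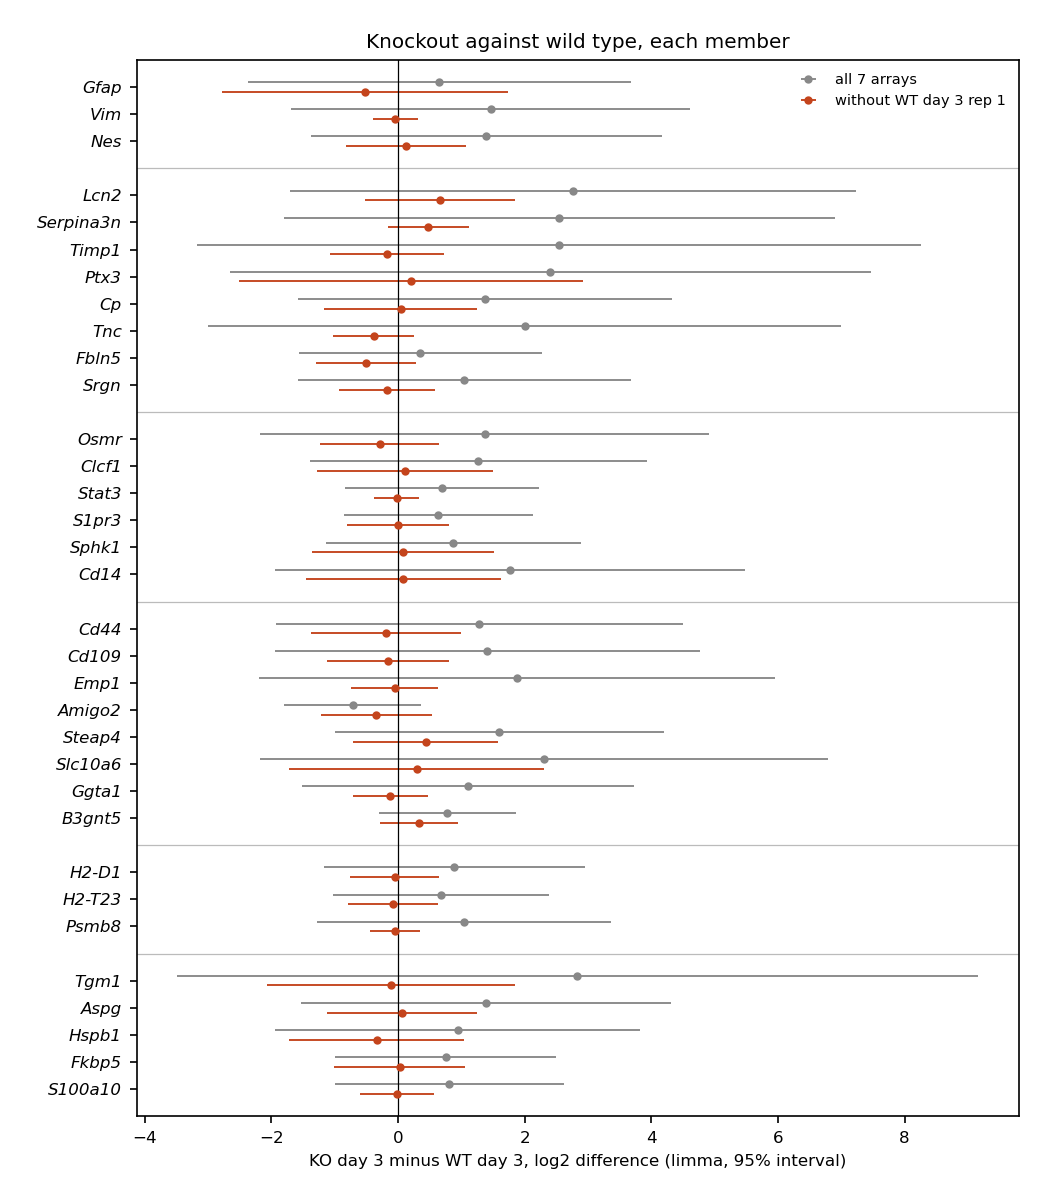
Knockout minus wild type difference on day 3 for each member (log2, horizontal axis) with its 95% interval from limma; grey uses all 7 arrays and red leaves out wild type day 3 replicate 1. Grey points lie right of 0 for 32 members with wide intervals, while red points lie between -0.52 and 0.66 with 14 above 0, and every interval of either colour spans 0.

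The precision without wild type replicate 1 differed widely between members. The narrowest 95% intervals were those of Stat3, Vim and Psmb8 (-0.45 to 0.34), all within 1 log2 step of 0. Ptx3 (-2.51 to 2.92), Gfap and Slc10a6 (-1.72 to 2.30) had the widest. Members spread more over the arrays than the typical feature: the median SD over the 5 day 3 arrays other than wild type replicate 1 was 0.43 for members and 0.22 for all features, and the median range over the 6 arrays was 1.23 against 0.65.

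The extremes of the members over those 5 day 3 arrays fell mostly on knockout arrays, which were 3 of the 5. Most extremes of all features fell on knockout arrays too. Among those 5 day 3 arrays, knockout replicate 3 was the highest in 20 members (21.9% of all features) and the lowest in none (22.2%), and knockout replicate 2 was the lowest in 23 (37.5%) and the highest in 4 (27.2%), namely Serpina3n, S1pr3, Cd109 and B3gnt5. Knockout replicate 1 was mixed, lowest in 8 members (15.9%) and highest in 6 (27.9%). The 8 were Gfap, Ptx3, Stat3, S1pr3, Cd44, Cd109, Amigo2 and Tgm1, and the 6 were Lcn2, Srgn, Cd14, Emp1, Psmb8 and Fkbp5. Wild type replicate 2 was highest in 1 member (11.2% of all features) and lowest in 2 (10.5%), and wild type replicate 3 was highest in 2 (11.8%) and lowest in 0 (13.9%), so both were extremes in few features generally.

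**Figure D3:**
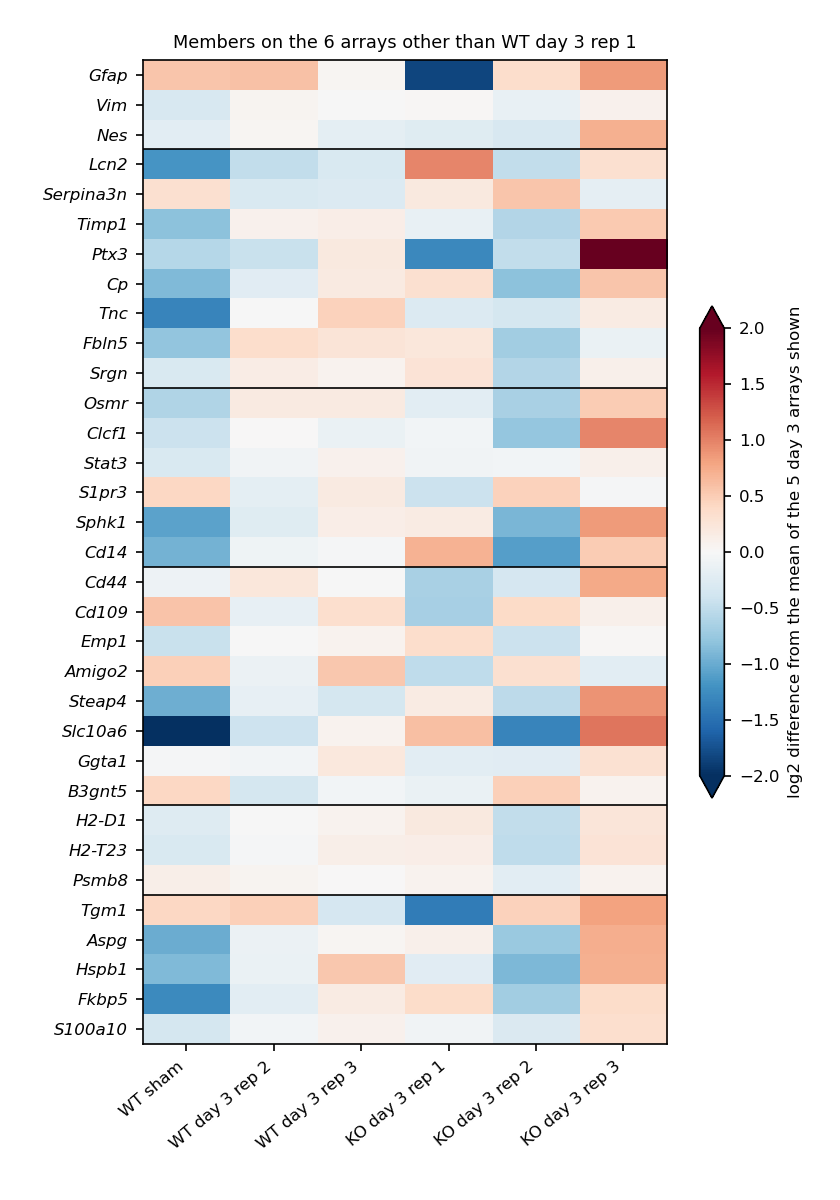
Each member's level on the 6 arrays other than wild type day 3 replicate 1, as the log2 difference from the mean of the 5 day 3 arrays shown (colour; red higher, blue lower; darkest shades stand for the scale's end or beyond), with black lines between roles. The knockout replicate 3 column is mostly red, the knockout replicate 2 column mostly blue, and the knockout replicate 1 column has its deepest blue at Gfap, Ptx3 and Tgm1, where replicates 2 and 3 do not share it.

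Cell type markers moved with these arrays; the counts below are again over the 5 day 3 arrays other than wild type replicate 1. Of 11 homeostatic astrocyte markers, genes such as Aqp4 and Slc1a3 that uninjured astrocytes use for water and glutamate transport, 9 were lowest on knockout replicate 1 and 8 were highest on knockout replicate 2. Their median was 1.21 on knockout replicate 1, 2.43 and 2.33 on knockout replicates 2 and 3, 2.21 and 1.75 on wild type replicates 2 and 3, 2.55 on sham and 2.90 on wild type replicate 1. All 7 endothelial markers and 6 of 7 pericyte and fibroblast markers were lowest on knockout replicate 2, as were 5 of 9 macrophage and monocyte markers. Microglia markers went the other way there, with 6 of 8 highest and 0 lowest on knockout replicate 2. On knockout replicate 3, 6 of 8 neuronal and 6 of 6 oligodendrocyte markers were lowest. Of all features, 15.9% were lowest on knockout replicate 1 and 22.2% on knockout replicate 3. On knockout replicate 2, 37.5% of all features were lowest and 27.2% highest. With all 7 arrays compared, wild type replicate 1 was above every other array in 5 of the 11 homeostatic astrocyte markers, close to the 43.9% of all features. It was below every other array in 7 of 7 endothelial markers, against 34.4% of all features. Every measured marker of these lists was well above background on all 7 arrays, and the part of cell type makeup in the member values was not tested.

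**Figure D4:**
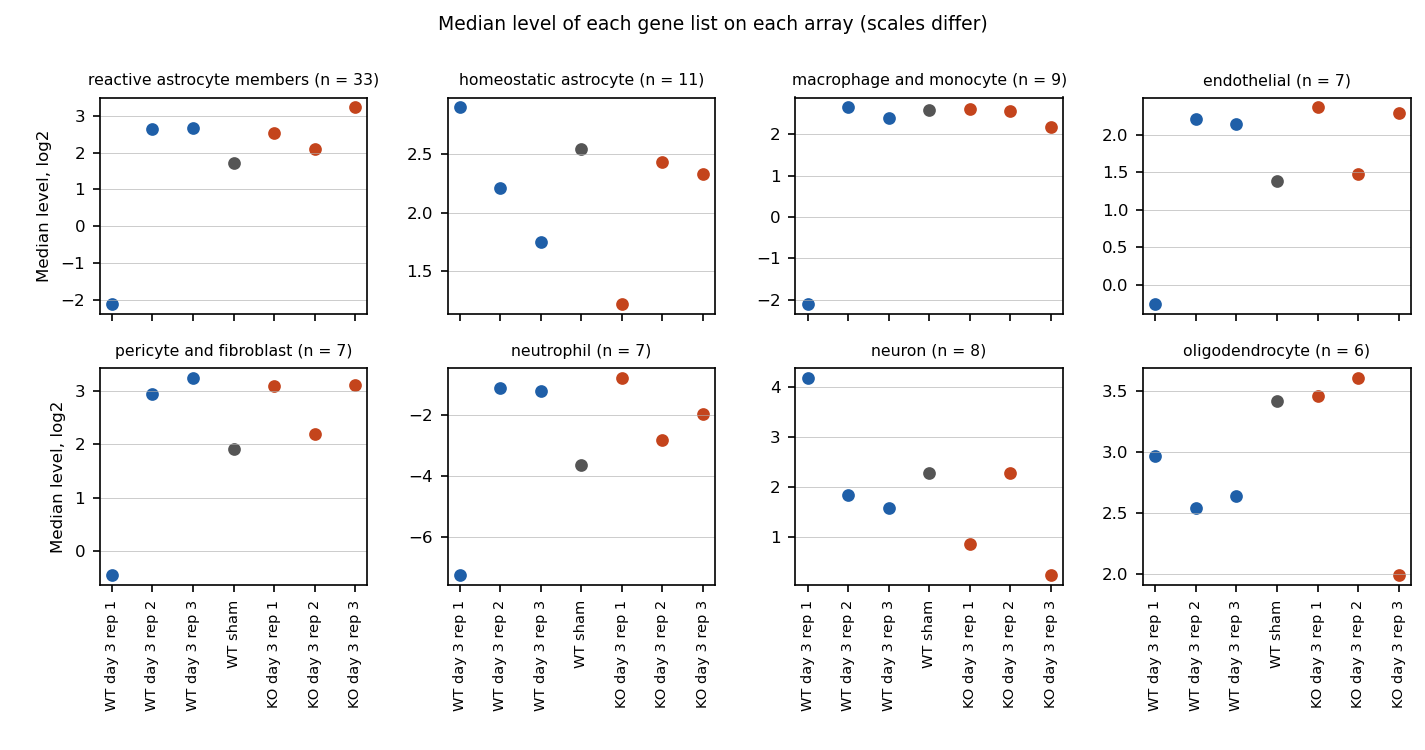
Median level of the members and of 7 lists of cell type markers on each array (log2 over the array's 75th percentile, vertical axis, scale of its own in each panel; blue wild type day 3, red knockout day 3, grey sham; n is the number of genes). The members' median was -2.12 on wild type day 3 replicate 1 and 1.72 to 3.23 elsewhere, and the macrophage, endothelial, pericyte and neutrophil panels share that low point while the neuron and homeostatic astrocyte panels have their highest point there.

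Against the sham array the members of wild type day 3 changed direction with replicate 1. With it 4 of 33 members (Fbln5, Sphk1, Amigo2 and Fkbp5) were higher on day 3, against 54.1% of all features, the median member difference was -0.83 against 0.03 over all features, and 0 members were called by limma where 0.0129% of features were (smallest member unadjusted p = 0.14, and 1.12% of features had one under 0.05). Without it 25 members were higher, against 50.7%, with a median of 0.36 against 0.01, and again 0 were called where 0.0258% of features were. Tnc (1.56 ± 0.33, unadjusted p = 0.00564) and Fbln5 (1.09 ± 0.40, unadjusted p = 0.0452) had an unadjusted p under 0.05 in limma, as did 4.51% of features, and both had an adjusted p of 0.768. Higher in size but less certain was Slc10a6 at 1.82 ± 1.03, and Fkbp5 was at 1.25 ± 0.53 (SE throughout). Members on the other side were B3gnt5 (-0.62 ± 0.31), Serpina3n (-0.60 ± 0.33), Cd109 (-0.48 ± 0.50), S1pr3, Tgm1, Amigo2, Gfap (-0.24 ± 1.16) and Psmb8. The single sham array has no spread of its own and is taken to vary like the day 3 arrays.

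Knockout day 3 against the same sham array gave 24 of 33 members higher, where 50.4% of all features were, with a median of 0.35 against 0.00 over all features. No member was called in limma, with 0.0129% of features called, nor with an unadjusted p under 0.05 (1.31% of features). When the spread was estimated without wild type replicate 1, which leaves these differences as they are, 0 members were called where 0.0344% of features were, and only Tnc (1.17 ± 0.31, SE; unadjusted p = 0.0136, adjusted p = 0.712) had an unadjusted p under 0.05, as did 4.91% of features. The largest differences besides that of Tnc were those of Slc10a6 (2.11 ± 0.97), Lcn2 (1.45 ± 0.57), Fkbp5 (1.28 ± 0.50) and Steap4 (1.15 ± 0.56). Gfap (-0.76 ± 1.09), Cd109 (-0.63 ± 0.47) and Amigo2 (-0.61 ± 0.43) were furthest below. Slide cannot be told apart from this comparison, and it shares the sham array with the wild type comparison and the knockout arrays with the comparison of genotypes, so the 3 sets of values are not independent.

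Taken array by array, sham was below all 5 day 3 arrays other than wild type replicate 1 in 14 members (24.9% of all features), among them the secreted Lcn2, Timp1, Cp, Tnc and Fbln5 and the filament gene Vim. It was above all 5 in Cd109 and Psmb8 (21.8%) and within their range in 17 members (53.3%), Gfap and Serpina3n included. At least 2-fold above sham were 4 members on wild type replicate 2 (3.87% of all features), 8 on wild type replicate 3 (4.97%), 10 on knockout replicate 1 (6.14%), 0 on knockout replicate 2 (1.78%) and 14 on knockout replicate 3 (6.31%). At least 2-fold below sham were Gfap, Cd109 and Tgm1 on knockout replicate 1 (10.4%). On wild type replicate 1, 31 members were at least 2-fold below sham, where 16.4% of all features were. Markers of some other cells were also low on sham. There 6 of 7 neutrophil, 7 of 7 endothelial and 5 of 7 pericyte and fibroblast markers read below all 5 day 3 arrays. The neutrophil median was -3.63 on sham and -2.83 to -0.80 on those 5. Other lists differed: 0 of 11 homeostatic astrocyte, 1 of 8 microglia and 1 of 9 macrophage and monocyte markers read below all 5. Above all 5 were 5, 4 and 0 of them, in the same order. Neuronal markers had 0 of 8 below and 3 above, and oligodendrocyte markers 0 of 6 below and 2 above. Of the neutrophil markers, Ngp was well above background on only 4 of the 7 arrays, and Mmp8 and Cxcr2 on 6. Ngp read -8.98 on sham, below the dimmest signal counted as well above background there (-7.58), so its place is uncertain. The part of these other cells in the member values was not tested.

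**Figure D5:**
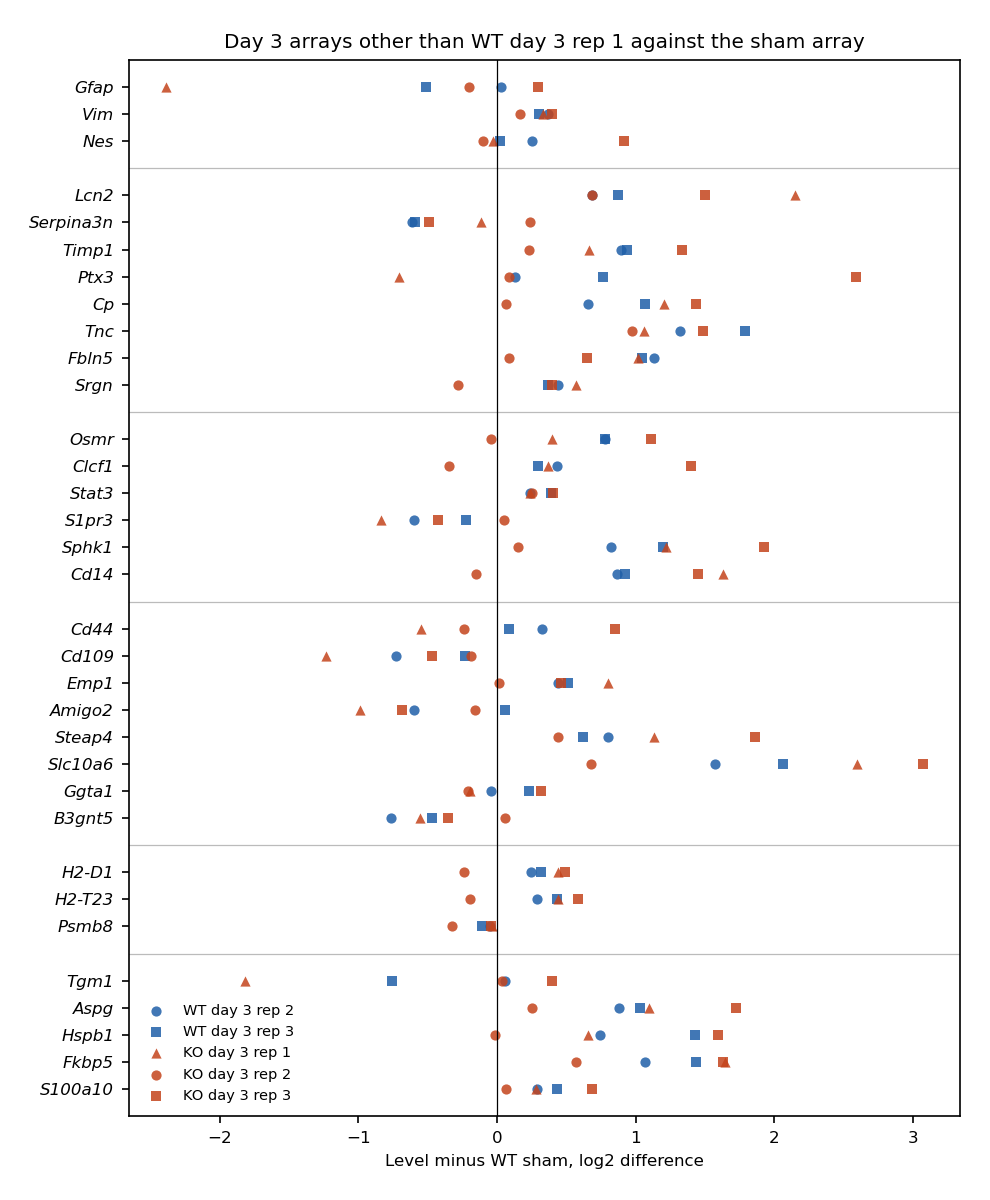
Level of each member on the 5 day 3 arrays other than wild type day 3 replicate 1, minus its level on the sham array (log2 difference, horizontal axis; each point 1 array, blue wild type, red knockout), grouped by role. Points of 14 members all lie right of 0, and the red circles of knockout replicate 2 lie close to 0, none of them 2-fold from sham.

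Published profiling sorts many of these genes into sets found after stroke or after systemic inflammation, or shared by both. Without wild type replicate 1, knockout minus wild type was higher in 6 of 12 shared (pan-reactive) genes with a median of -0.02, in 6 of 11 ischemia genes with a median of 0.08, and in 1 of 8 neuroinflammation genes (Fkbp5) with a median of -0.10. Of all features 50.3% were higher there. With all arrays the counts were 12, 11 and 7 (medians 1.38, 1.41 and 0.82), where 46.9% of all features were higher. Wild type day 3 minus sham without replicate 1 was higher in 9 of 12 (median 0.74), 8 of 11 (median 0.36) and 6 of 8 (median 0.32), in the same order (50.7% of all features). With all arrays it was higher in 0 of 12 (median -1.10), 1 of 11 (median -0.79) and 3 of 8 (median -0.53), against 54.1%. Knockout minus sham, which does not use that array, was higher in 9 of 12 (median 0.62), 8 of 11 (median 0.43) and 5 of 8 (median 0.23). Of all features 50.4% were higher in that comparison. No gene of any set was called, and differences between the sets were not tested.

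Genes of the same response outside the set were read in the same fits. Of 28 such companion genes (gp130 ligands and receptors, JAK kinases, inducers made by microglia and further reactive markers), 27 were measured and 0 were called in any of the 3 comparisons. For knockout minus wild type 26 were higher with all arrays (median 0.75), against 46.9% of all features. Without wild type replicate 1, 9 were higher and 18 lower (median -0.04), where 50.3% of all features were higher. In knockout 21 of 27 were higher than on sham (median 0.27), against 50.4% of all features. In wild type day 3 with all arrays, 7 of 27 were higher than on sham (median -0.37), against 54.1%. Without wild type replicate 1, 20 of 27 were higher (median 0.35), against 50.7%. The companions that differed most in size between genotypes without it were Il1a, a microglial cytokine gene (0.73 ± 0.40), the chemokine gene Cxcl10 (0.53 ± 0.48), Thbs1, which encodes thrombospondin 1 (-0.49 ± 0.40), and the endothelin B receptor gene Ednrb (0.38 ± 0.17; SE, limma, adjusted p = 0.9999 for each). Il1a was well above background on only 5 of the 7 arrays and read -7.57 on wild type replicate 2, below the dimmest signal counted as well above background there (-7.21), so its difference and its place in this order are uncertain. Knockout replicate 3 was the highest of the 5 day 3 arrays in 18 companions (21.9% of all features) and knockout replicate 2 the lowest in 17 (37.5%).

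Promoter windows were searched because STAT3, NF-kB, AP-1 and C/EBP factors are known activators of such genes. Any part of these factors in the member levels on these arrays was not tested. RefSeq promoter windows of GRCm38.p6 (250 bases before to 50 after each start) were at hand for 29 of the 33 members and 27025 genes in all; Cd109, Clcf1, Cd14 and S100a10 had none there. The STAT motif TTCNNNGAA, on either strand, was found in 6 of 29 members (20.7%; 9.55% of all genes): Gfap, Sphk1, Emp1, Steap4, Psmb8 and Tgm1. Its stricter form TTCCNGGAA, which is contained in it, was found in Gfap and Steap4 (6.90%; 1.35% of all genes). The NF-kB motif GGGNNTTCC was found in 7 members (24.1%; 6.58%), namely Gfap, Vim, Ptx3, Sphk1, Steap4, Slc10a6 and H2-D1, and a stricter NF-kB consensus in 0 (0.466%). The C/EBP motif TTGCNNAA was found in 7 (24.1%; 12.2%), the AP-1 motif TGANTCA in 4 (13.8%; 8.97%) and the CArG box in 0 (1.81%). These matches describe letters in a window and not binding.

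The upstream 250 bases are shown for 3 members with a STAT motif: Tgm1, with the widest gap on wild type replicate 1, Steap4, with the stricter form, and Psmb8, with the least variation over the other 6 arrays. Capitals mark each match to the STAT motif, which starts 173 and 64 bases before the gene start in Tgm1, 116 in Steap4 and 97 in Psmb8.
Tgm1, chr14:55713493-55713742, minus strand, GRCm38.p6: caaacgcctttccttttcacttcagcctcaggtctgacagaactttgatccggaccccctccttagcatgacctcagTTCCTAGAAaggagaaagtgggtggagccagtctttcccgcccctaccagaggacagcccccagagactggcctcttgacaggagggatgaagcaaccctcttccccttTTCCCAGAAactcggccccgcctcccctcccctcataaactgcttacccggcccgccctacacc
Steap4, chr5:7960222-7960471, plus strand, GRCm38.p6: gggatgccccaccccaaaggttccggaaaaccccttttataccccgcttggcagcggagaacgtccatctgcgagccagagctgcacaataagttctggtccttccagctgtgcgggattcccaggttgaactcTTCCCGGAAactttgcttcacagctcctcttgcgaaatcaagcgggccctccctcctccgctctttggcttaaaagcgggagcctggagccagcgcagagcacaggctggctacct
Psmb8, chr17:34197945-34198194, plus strand, GRCm38.p6: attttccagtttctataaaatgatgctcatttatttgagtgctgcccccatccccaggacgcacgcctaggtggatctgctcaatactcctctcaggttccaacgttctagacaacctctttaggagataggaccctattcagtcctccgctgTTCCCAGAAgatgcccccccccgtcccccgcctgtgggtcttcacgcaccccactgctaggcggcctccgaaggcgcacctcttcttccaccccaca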

How the data were processed

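RNA of 7 mouse brain samples was hybridised in 1 colour (Cy3), 1 sample per Agilent array. The authors deposited the scanner files that Agilent Feature Extraction, version 11.5.1.1 by the submitters' processing notes, had written; per the file headers the processed signal is a background-subtracted intensity, with no step between arrays. The deposited value table of the series holds a linear ratio, found to be that processed signal over its 75th percentile (largest deviation 0.0428%; column medians 0.0863 to 0.0976), and served as an alternative. Intensities were taken to log2 minus the array's 75th percentile over spots other than controls. Spots with an outlier flag were left out, spots of a probe averaged, probes kept if well above background on 3 or more arrays, and the brightest probe taken per gene name, which gave 23288 features; 9 members had several probes.

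Features were tested in limma 3.58.1 (R 4.3.3; lmFit, eBayes) in 1 model of 3 groups, two-sided; p-values were adjusted by Benjamini-Hochberg over the 23288 features and called under 0.05. The fit was also run on simulated data, drawn from the means and spreads of the knockout arrays with known differences added. Those data held no array like wild type day 3 replicate 1, so they cannot show how the fit behaves with one. The members, lists and tests were chosen with earlier results of these data known. All 33 members are named, with values on every array for the markers of each role and the 2 members per role that differed most between genotypes without wild type day 3 replicate 1. The 4 companion genes that differed most in size are named too. Alternatives covered background correction, normalization, probe filter, probe summary, array weights, replicate block and each array left out. Arrays with the same replicate number had correlations of their deviations of -0.38, -0.56 and 0.35. The deviations were taken from group means that included wild type day 3 replicate 1, so they could not show whether arrays pair. Promoters and the gene table are RefSeq's for GRCm38.p6; probe positions are the array design's, on mm9. Figures used matplotlib 3.10.9 under Python 3.11.15.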

Additional observations from a re-analysis of the deposited data

How the results depend on the processing

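No member passed an adjusted p of 0.05 in limma in any setting run for any comparison. The median member difference of knockout minus wild type was 1.28; leaving out 1 array gave -0.04 (without wild type day 3 replicate 1) to 1.96, and array weights, whose fit did not fully converge, gave 0.12. For wild type minus sham the median was -0.83, with -1.45 to 0.36 when 1 array was left out, the upper end again without that replicate, and 0.32 with array weights. For knockout minus sham it was 0.35, with 0.17 to 0.51. Over all features, knockout against wild type had 0 calls (196 with an unadjusted p under 0.05), 2 calls with array weights and 0 to 0 with 1 array left out. Wild type against sham had 3 calls, 0 with normexp, with quantile normalization, with probes above background on all 7 arrays or with the arrays of the 2 groups alone (271, 287, 191 and 174 with an unadjusted p under 0.05), 146 with array weights and 0 to 6 with 1 array left out. Knockout against sham had 3, then 0 in the same 4 settings (308, 328, 207 and 749), 95 with array weights and 0 to 8 with 1 array left out. The causes were not tested. Normexp moved the median of all features to 0.10 for wild type minus sham and 0.11 for knockout minus sham, with 65.6% and 64.2% of features higher in place of 54.1% and 50.4%, and 7 and 25 members higher. With the replicate block, knockout against wild type had 0 calls (148 with an unadjusted p under 0.05) and a median member difference of 1.28. Not every array correlated best with its own number, a check that could not settle pairing. Searching the upstream 250 bases alone gave the STAT motif in 5 of 29 members (17.2%; 8.13% of all genes). Probe signal limits Ptx3, Tnc, Steap4 and Slc10a6 on wild type day 3 replicate 1, where they were not well above background.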
